A study of Mus musculus with 14 samples.

Results

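Hypoxia-inducible factors and their targets were followed in mouse kidneys after renal ischemia/reperfusion injury (IRI) through 10 genes chosen by symbol. The 10 genes were the factor subunits Hif1a and Epas1, the oxygen sensors Egln1 and Egln3, the secreted targets Vegfa and Adm, and the targets Bnip3, Ankrd37, Ndrg1 and Car9. They are 10 of the 24411 genes listed in each deposited count table, and all 10 were among the 14300 genes that passed the filter on low counts. Bulk RNA sequencing, in which the RNA of every cell in a sample is pooled, covered whole kidney RNA from 8-week-old male C57/B6 mice at day 0 (4 libraries), day 1 (5 libraries) and day 3 (5 libraries). The labels name no transgene, drug or other agent in any group, and neither they nor the paper say whether the day 0 mice had a sham operation. Nothing says that each library came from a separate animal, so p-values measure the spread between these libraries, which may in part be technical.

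In cells with enough oxygen, prolyl hydroxylases of the EGLN family modify the alpha subunits HIF-1α (Hif1a) and HIF-2α (Epas1), which the VHL ubiquitin ligase then marks for destruction. When oxygen falls the alpha subunits persist, pair with ARNT and bind hypoxia response elements near genes of blood vessel growth, glycolysis and mitochondrial turnover. This control acts mostly on the protein, which RNA sequencing does not measure. In the kidney HIF-1α is best known from tubule cells, and HIF-2α from endothelial and interstitial cells, and in the interstitial cells it drives erythropoietin.

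Reads on genes ranged from 12485579 to 20476979 per library, with medians of 17147263 at day 0, 18297672 at day 1 and 16511410 at day 3. All markers of the proximal tubule, thick ascending limb, collecting duct and podocyte lists had at least 62 reads in every library, as a kidney sample should. The number in a library's name has 1 digit in all day 0 libraries. At day 1 it has 1 digit in replicates 3, 4 and 5 but 3 digits in the other 2 libraries, and at day 3 it has 1 digit in replicates 4 and 5 but 3 digits in the other 3. Nothing says what this number format marks, and since day 0 holds 1-digit libraries alone, format and day cannot be told apart there. Within day 1 and within day 3 the formats differed widely across the transcriptome, with 35% and 18.5% of the tested genes called, so comparisons among 1-digit libraries are given beside the pooled ones.

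The start sites of these genes are shown first because the hypoxia response element has a short core, ACGTG or GCGTG, that can be read from their sequence. RefSeq (GRCm38.p6) gave start sites for 8 of the 10 genes, as 9 windows of 250 bases upstream, since Vegfa has a second, internal start. The windows of the genes described most closely are printed 5′ to 3′ on the strand of the gene, with each core match in capitals. A match on the opposite strand reads CACGT or CACGC, and CACGTG, which is also the E-box bound by other helix-loop-helix factors, counts once on each strand. Adm lies at chr7:110627407-110627656 on the plus strand.
Adm: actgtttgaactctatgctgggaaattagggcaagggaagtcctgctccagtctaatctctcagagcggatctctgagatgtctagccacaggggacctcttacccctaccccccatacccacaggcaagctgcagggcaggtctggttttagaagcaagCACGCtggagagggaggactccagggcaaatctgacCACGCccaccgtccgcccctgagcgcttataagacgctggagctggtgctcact
Hif1a lies at chr12:73907617-73907866 on the plus strand.
Hif1a: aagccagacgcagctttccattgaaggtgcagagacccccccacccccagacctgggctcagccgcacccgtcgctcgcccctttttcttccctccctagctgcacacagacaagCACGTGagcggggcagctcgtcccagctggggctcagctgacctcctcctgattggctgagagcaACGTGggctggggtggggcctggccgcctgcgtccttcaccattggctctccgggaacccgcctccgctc
Bnip3 lies at chr7:138909507-138909756 on the minus strand.
Bnip3: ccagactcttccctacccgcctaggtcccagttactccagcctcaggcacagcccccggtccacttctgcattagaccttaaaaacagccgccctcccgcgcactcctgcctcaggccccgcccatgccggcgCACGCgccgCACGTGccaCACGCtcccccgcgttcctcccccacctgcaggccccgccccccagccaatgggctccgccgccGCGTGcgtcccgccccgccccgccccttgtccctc
The first start of Vegfa lies at chr17:46032378-46032627 on the minus strand.
Vegfa: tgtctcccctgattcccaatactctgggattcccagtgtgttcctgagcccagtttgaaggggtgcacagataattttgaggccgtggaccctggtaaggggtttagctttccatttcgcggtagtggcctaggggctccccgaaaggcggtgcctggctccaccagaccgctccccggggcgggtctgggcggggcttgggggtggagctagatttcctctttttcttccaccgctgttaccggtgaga
Egln1 (chr8:124949325-124949504, minus strand) and Ankrd37 (chr8:45999868-46000100, minus strand) are printed without their last 70 and 17 bases, which GENCODE M21 transcripts place in a 5′ untranslated region, and for Ankrd37 in coding sequence too.
Egln1: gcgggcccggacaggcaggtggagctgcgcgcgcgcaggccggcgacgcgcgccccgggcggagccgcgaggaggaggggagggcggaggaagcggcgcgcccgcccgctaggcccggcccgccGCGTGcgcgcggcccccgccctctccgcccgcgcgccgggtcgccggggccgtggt
Ankrd37: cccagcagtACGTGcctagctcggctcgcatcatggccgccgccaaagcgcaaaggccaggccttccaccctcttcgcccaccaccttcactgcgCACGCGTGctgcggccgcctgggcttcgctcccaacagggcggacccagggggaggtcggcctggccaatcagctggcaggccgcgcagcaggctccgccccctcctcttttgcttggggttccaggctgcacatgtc

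At least 1 core match lay in 8 of the 9 windows, against 38.6% of 32851 windows of the same length upstream of all start sites in the RefSeq table. ACGTG was present in 7 of the 9 (16.6% of all windows) and GCGTG in 5 (28.2%). The genes were chosen as parts and targets of this pathway, so these differences from all windows are not an independent result. Bnip3 had 5 matches, a number reached by 1.01% of all windows, and Ankrd37 had 4, reached by 2.58%. Hif1a had 3 matches, of which 2 were both strands of 1 CACGTG. Egln1 had 2, of which the one 68 bases before the start lay in the stretch not printed, and the last match of Ankrd37, 6 bases before its start, did too. Adm had 2 GCGTG matches on the opposite strand, 90 and 54 bases before its start. The first Vegfa window held none of these letters, and the internal one held 2, both inside a coding exon of Vegfa. Egln3 and Car9 had 1 each, and that of Car9, 18 bases before the start, lay in a stretch of 60 bases annotated as untranslated region. Epas1 and Ndrg1 are named only. A match describes letters in the window and does not show binding. Sequence of these genes outside the windows was not searched. A window without a match, as at the first Vegfa start, therefore does not show that the gene lacks a hypoxia response element.

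**Figure D1:**
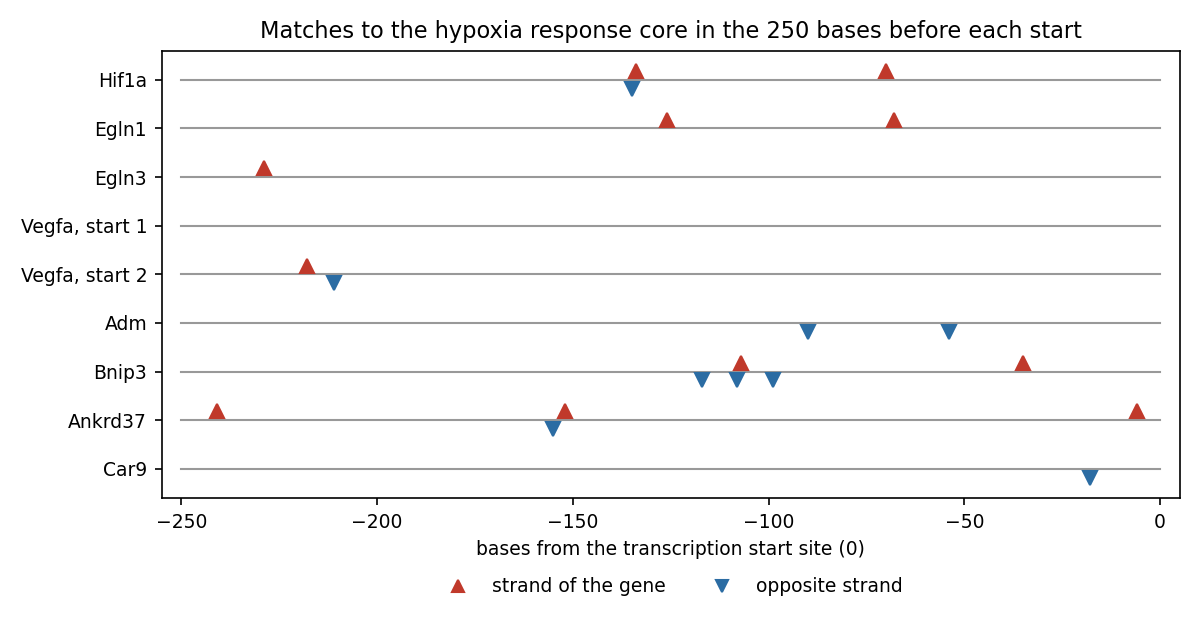
Position of each ACGTG or GCGTG match (triangles) in the 250 bases before 9 RefSeq start sites of 8 genes, with 0 at the start site; red triangles above a line are matches on the strand of the gene and blue triangles below it matches on the opposite strand. Bnip3 shows 5 matches and Ankrd37 4, and the first start of Vegfa shows none.

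Across days the 10 genes did not move together. At day 1 Hif1a and Adm were higher than at day 0, and Egln1 and Vegfa were lower, so 4 of 10 genes were called at an adjusted p under 0.05 by edgeR's quasi-likelihood test, against 42.1% of all genes tested. At day 3 Egln1 and Vegfa were again lower than at day 0 and Adm was higher, 3 of 10 against 33.3%. From day 1 to day 3 Hif1a and Adm fell, 2 of 10 against 15.9%. These shares lie near those of all genes. The median log2 difference of the 10 genes was -0.10 at day 1 and -0.03 at day 3 relative to day 0, beside 0.01 and 0.05 over all genes tested. Both later days were compared with the same 4 day 0 libraries. The groups did not overlap for 4 of 10 genes between day 1 and day 0, 2 of 10 between day 3 and day 0 and 0 of 10 between day 3 and day 1, beside 42%, 33.4% and 7.61% of all genes. Values below are counts per 1000000 reads on genes, scaled by TMM (CPM), in replicate order, and differences are log2 fold changes from the fit with their standard error (SE).

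**Figure D2:**
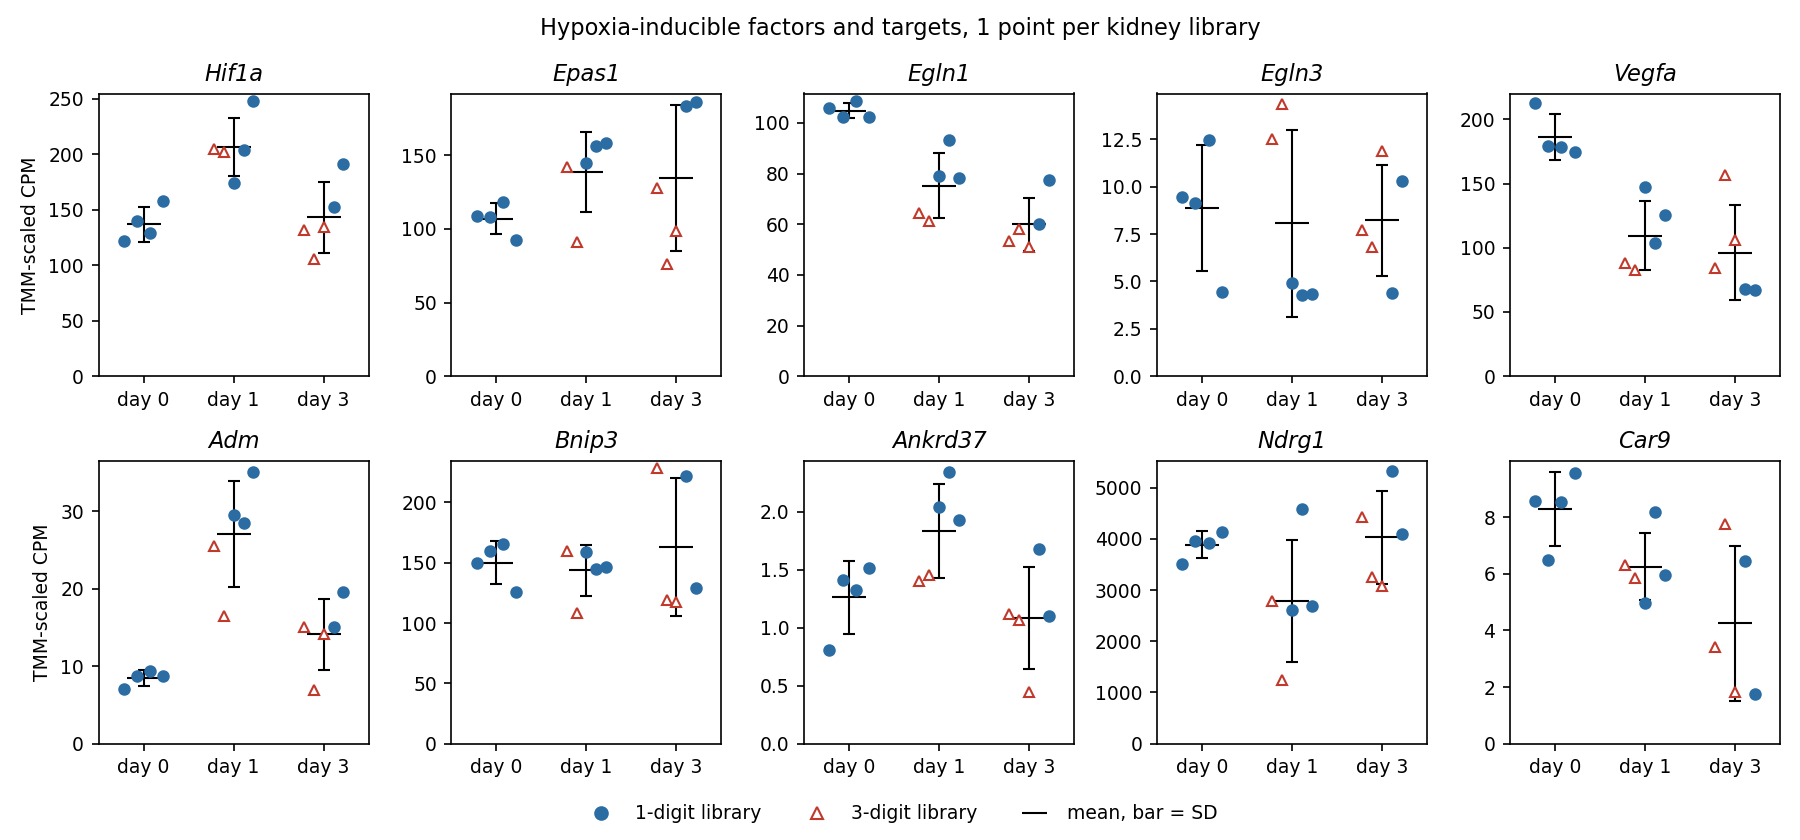
TMM-scaled CPM (linear axes from 0) of the 10 genes by day, 1 point per library, with 1-digit libraries as filled circles and 3-digit libraries as open triangles; horizontal bars are means and error bars SD (n = 4, 5 and 5). Adm and Hif1a sit above their day 0 libraries at day 1, and Egln1 and Vegfa sit below theirs at both later days.

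Levels of different genes can be set side by side only per length of transcript. At day 0, in CPM per kb of merged GENCODE M21 exons, Ndrg1 stood far above the others at 589 ± 40.0 (SD, n = 4). Bnip3 followed at 66.3 ± 7.74, Vegfa at 43.5 ± 4.12 and Egln1 at 29.2 ± 0.845. Hif1a stood at 23.3 ± 2.68 and Epas1 at 19.1 ± 1.88, and the libraries of this pair overlapped. Adm was lower at 5.24 ± 0.632, followed by Car9 at 3.59 ± 0.562 and Egln3 at 3.33 ± 1.25, which overlapped, and Ankrd37 came last at 0.821 ± 0.205. The libraries of the other neighbours in this order did not overlap.

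Among the factor subunits, Hif1a RNA rose at day 1. Hif1a (ENSMUSG00000021109.13, chr12:73901375-73947530 of mm10, plus strand) read 122, 139.6, 129 and 158 CPM at day 0, then 205, 202, 174, 204 and 248 CPM at day 1, and 132, 106, 134, 153 and 191 CPM at day 3. Every day 1 library lay above every day 0 library, whereas 3 of the 5 day 3 libraries lay within the day 0 range, 1 below it and 1 above. The log2 difference from day 0 was 0.59 at day 1 (SE 0.163, edgeR adjusted p = 0.0106) and 0.06 at day 3 (edgeR adjusted p = 0.791). Among 1-digit libraries the day 1 difference was 0.61 (edgeR adjusted p = 0.00323). From day 1 to day 3 Hif1a fell by 0.53 (SE 0.153, edgeR adjusted p = 0.0319) with overlapping groups, by 0.71 among 3-digit libraries (edgeR adjusted p = 0.0186), and the 1-digit value was -0.28 (edgeR adjusted p = 0.247). The day 1 to day 3 call was lost without day 1 replicate 4 or 5 or without any of day 3 replicates 1 to 4, with adjusted p from 0.0509 to 0.0818, and also with library totals in place of TMM (-0.37, edgeR adjusted p = 0.13) or when only these days were fitted (edgeR adjusted p = 0.081). The annotation used here lists a predicted gene, Gm49321, on the same strand within Hif1a, whose reads the counts may share.

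Epas1, the subunit of HIF-2α, varied more within the later days than between days. Epas1 (ENSMUSG00000024140.10, chr17:86753700-86833410, plus strand) read 109, 108, 118 and 92.8 CPM at day 0, then 142, 91.4, 145, 156 and 159 CPM at day 1, and 128, 76.0, 98.5, 184 and 187 CPM at day 3. Of the day 1 libraries, 4 lay above the day 0 range and replicate 2 lay just below it, while the 2 1-digit libraries of day 3 were the highest of all and its 3-digit libraries spread around day 0. The pooled difference from day 0 was 0.38 at day 1 (SE 0.245, edgeR adjusted p = 0.226) and 0.33 at day 3 (edgeR adjusted p = 0.306), and neither was called. Among 1-digit libraries Epas1 was higher by 0.52 at day 1 (edgeR adjusted p = 0.0209) and by 0.79 at day 3 (edgeR adjusted p = 0.00421), and with the format as a term in the fit both days were called, at 0.62 and 0.65 (edgeR adjusted p = 0.0112 and 0.0134). The 1-digit call at day 1 was lost without day 0 replicate 4 or day 1 replicate 4 or 5, with adjusted p from 0.0567 to 0.0598. AC096777.1 overlaps Epas1 on the same strand.

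Of the 6 genes listed as HIF partners, coactivators and inhibitors, none was called in the 3 pooled comparisons of days, where 42.1%, 33.3% and 15.9% of all genes were. Among 1-digit libraries 1 was lower at day 1 and 2 were higher at day 3 than at day 0, beside 58.5% and 53.7% of all genes called. Between day 1 and day 3, 2 were higher and 1 lower among 1-digit libraries and 1 was lower among 3-digit ones, beside 32% and 13.9%. Arnt, the common beta subunit, read 40.0 to 44.8 CPM at day 0, 39.4 to 48.4 CPM at day 1 and 44.5 to 52.9 CPM at day 3. Hif3a, a further alpha subunit, stayed low, at 1.14 to 2.18 CPM, 0.613 to 2.96 CPM and 2.14 to 4.17 CPM. Within day 1, 5 of these 6 genes were called between the formats, beside 35% of all genes.

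Egln1 fell at both later days and its groups did not overlap with day 0. Egln1 (ENSMUSG00000031987.6, chr8:124908587-124949324, minus strand) encodes PHD2, the main oxygen sensor of most cells. It read 106, 102, 109 and 102 CPM at day 0, then 64.2, 61.4, 79.1, 93.1 and 78.2 CPM at day 1, and 53.4, 58.0, 51.2, 60.1 and 77.6 CPM at day 3. The day 0 libraries lay close together, between 102 and 109 CPM, and above all 10 later libraries. The difference from day 0 was -0.48 at day 1 (SE 0.145, edgeR adjusted p = 0.0168) and -0.81 at day 3 (SE 0.145, edgeR adjusted p = 0.0012), and both calls held without any 1 library and in the 9 alternative settings that kept the threshold on adjusted p alone, while neither difference reaches an absolute log2 value of 1. Among 1-digit libraries the values were -0.33 (edgeR adjusted p = 0.0211) and -0.61 (edgeR adjusted p = 0.00168). The 1-digit call at day 1 was lost without day 0 replicate 3 or day 1 replicate 3 or 5, with adjusted p from 0.0535 to 0.0838. From day 1 to day 3 the value was -0.33 (edgeR adjusted p = 0.12), and without day 3 replicate 5 it was -0.46 (edgeR adjusted p = 0.0226).

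Egln3, which encodes PHD3 and is itself a HIF target, split by number format at day 1. Egln3 (ENSMUSG00000035105.5, chr12:54178981-54203860, minus strand) read 9.43, 9.12, 12.4 and 4.41 CPM at day 0, then 12.5, 14.4, 4.91, 4.29 and 4.34 CPM at day 1, and 7.74, 6.81, 11.9, 4.37 and 10.3 CPM at day 3. The 2 3-digit libraries of day 1 were about as high as the highest day 0 library, and its 3 1-digit libraries were as low as the lowest one. The pooled differences from day 0, -0.13 at day 1 (edgeR adjusted p = 0.83) and -0.11 at day 3 (edgeR adjusted p = 0.864), were not called. Within day 1 the 3-digit libraries were higher by 1.57 (SE 0.40, edgeR adjusted p = 0.00939), and without day 1 replicate 2 by 1.47 (edgeR adjusted p = 0.0678). Among 1-digit libraries Egln3 was lower at day 1 by a log2 value of -0.97 (edgeR adjusted p = 0.0297), a call that 6 of 14 single libraries decided (edgeR adjusted p from 0.0533 to 0.0899 without day 0 replicate 1, 2 or 3 or day 1 replicate 3, 4 or 5).

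Of the 10 other genes of oxygen sensing and HIF turnover, 4 rose at day 1 and none fell, a called share near the 42.1% of all genes. Tceb2 (Elob), Tceb1 and Rbx1, which belong to the VHL ubiquitin ligase, rose by 0.59, 0.46 and 0.44, and Siah1a, a ligase known to act on EGLN3, rose by 1.30. The Siah1a and Rbx1 calls were both lost without any 1 of the day 0 libraries or day 1 replicate 4 or 5 (edgeR adjusted p from 0.0517 to 0.0619 for Siah1a and from 0.0608 to 0.0801 for Rbx1). At day 3 Tceb2 was higher by 0.45 and Cul2, the scaffold of the same ligase, was lower at -0.48. The Tceb2 call was lost in 8 of 14 fits that each left out 1 library (edgeR adjusted p from 0.063 to 0.0927). Vhl itself read 23.4 to 25.6 CPM at day 0, 21.1 to 32.3 CPM at day 1 and 19.3 to 25.3 CPM at day 3, and Egln2, the third prolyl hydroxylase, 73.5 to 87.3 CPM, 63.5 to 105.7 CPM and 62.1 to 90.04 CPM, and neither was called.

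Adm showed the largest change of the 10 genes. Adm (ENSMUSG00000030790.15, chr7:110627661-110629820, plus strand) encodes adrenomedullin, a peptide that widens blood vessels. It read 7.02, 8.71, 9.41 and 8.77 CPM at day 0, then 25.5, 16.5, 29.6, 28.5 and 35.1 CPM at day 1, and 15.1, 6.87, 14.2, 15.0 and 19.5 CPM at day 3. All day 1 libraries lay above day 0, and at day 3 replicate 2 fell below the day 0 range while the other 4 libraries lay above it. The difference from day 0 was 1.67 at day 1 (SE 0.27, edgeR adjusted p = 0.000413), and 1.87 among 1-digit libraries (edgeR adjusted p = 3.81e-05). At day 3 it was 0.74 (SE 0.264, edgeR adjusted p = 0.0446), which is close to the threshold and was lost in 4 of 9 alternative settings (adjusted p from 0.0524 to 0.0724). That call held without day 1 replicate 2 or 5 or day 3 replicate 2 and was lost without any other single library, with adjusted p from 0.0526 to 0.121, whereas among 1-digit libraries the value was 1.03 (edgeR adjusted p = 0.00666, and 0.85 at 0.0769 without day 3 replicate 5). From day 1 to day 3 Adm fell by 0.93 (SE 0.245, edgeR adjusted p = 0.0212), with overlapping groups, and the value without day 1 replicate 5 was -0.82 (edgeR adjusted p = 0.0573), while the fit of these days alone gave -0.94 (edgeR adjusted p = 0.0609). Within formats this difference was -0.85 among 1-digit libraries (edgeR adjusted p = 0.0433, lost without any 1 of 9 libraries at 0.0509 to 0.239 and with library totals at 0.121) and -0.80 among 3-digit libraries (edgeR adjusted p = 0.0798).

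Vegfa fell at both later days. Vegfa (ENSMUSG00000023951.17, chr17:46016993-46032369, minus strand) encodes the vessel growth factor VEGF-A, which kidney tubules and podocytes make. It read 213, 179, 179 and 175 CPM at day 0, then 88.3, 82.7, 147, 103 and 126 CPM at day 1, and 83.9, 156, 106, 67.8 and 67.1 CPM at day 3. No library of a later day reached the lowest day 0 library. The difference from day 0 was -0.77 at day 1 (SE 0.24, edgeR adjusted p = 0.0194) and -0.95 at day 3 (SE 0.24, edgeR adjusted p = 0.00841), and the day 1 value was -0.70 (edgeR adjusted p = 0.0571) without day 0 replicate 1, the highest library. Among 1-digit libraries it was -0.57 at day 1 (edgeR adjusted p = 0.0171, lost at 0.0869 without day 1 replicate 4) and -1.47 at day 3 (edgeR adjusted p = 0.000185). The pooled day 3 to day 1 difference was -0.18 (edgeR adjusted p = 0.613), but it was -0.89 among 1-digit libraries (edgeR adjusted p = 0.00961, and 0.0545 without day 3 replicate 4) and 0.43 among 3-digit libraries (edgeR adjusted p = 0.209).

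**Figure D3:**
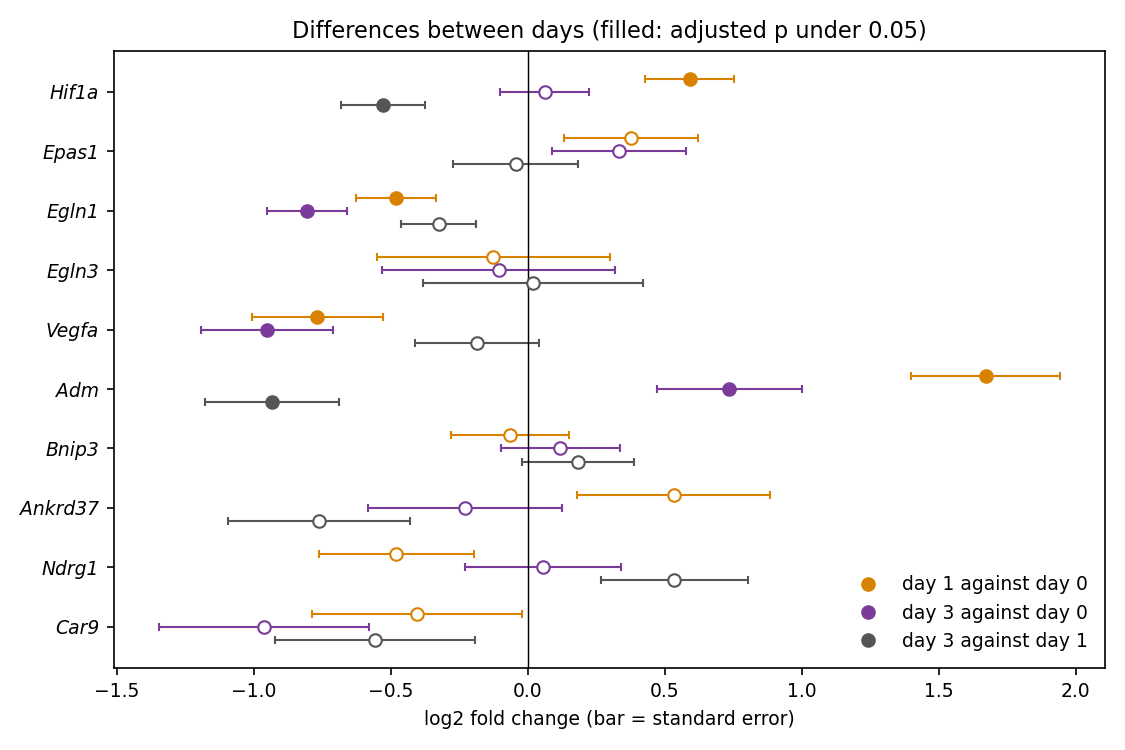
Log2 fold change of each gene in the 3 comparisons of days, with bars of 1 standard error from the edgeR fit on 14 libraries; filled points passed an adjusted p under 0.05. Adm at day 1 stands farthest to the right at 1.67, and Egln1 and Vegfa lie left of 0 at both later days.

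The fall of Vegfa went along with a fall of tubule markers of several segments, among which the proximal tubule is given by library. The summed CPM of 9 proximal tubule markers was 16260 to 17890 at day 0. Of the 9 genes 4 fell at each later day, beside 18.7% and 13.8% of all genes, while none rose. In replicate order the sum was 5995, 4971, 16390, 10800 and 10140 CPM at day 1, and 7649, 15120, 8131, 5735 and 3233 CPM at day 3. The day 3 libraries had the same order by Vegfa as by this sum, and at day 1 the order differed only in which of replicates 4 and 5 came second. Replicate 3 of day 1 and replicate 2 of day 3 held both the highest Vegfa and the highest sum of their day. At day 0 the orders differed, since replicate 2 was second by Vegfa and last by the sum. By the summed tubular injury markers the libraries stood in the reverse order of Vegfa at day 0. At both later days they did so except between replicates 4 and 5. That sum was 29950, 35180, 7228, 13510 and 14780 CPM at day 1, and 31400, 5849, 19780, 43160 and 34960 CPM at day 3. The 4 thick ascending limb markers summed to 5922 to 9054 CPM at day 0, 3071 to 5462 CPM at day 1 and 2032 to 3333 CPM at day 3. Of these, 3 of 4 fell at each later day, beside 18.7% and 13.8% of all genes. The 5 collecting duct markers summed to 736 to 1008 CPM, 338 to 740.3 CPM and 215 to 695 CPM, and 2 fell at day 1 and 3 at day 3, beside the same shares. Podocyte markers summed to 269 to 355 CPM at day 0, 329 to 445.5 CPM at day 1 and 289.6 to 495 CPM at day 3. In bulk tissue fewer cells of a type and less RNA per cell cannot be told apart, and the part of the tubule in the Vegfa values was not tested.

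Epas1 was ordered in a like way beside endothelial markers. The sum of 10 endothelial markers was 323 to 403 CPM at day 0. Of these markers 3 rose and 1 fell at day 1 and none was called at day 3, beside 42.1% and 33.3% of all genes. Among 1-digit libraries 6 rose and 3 fell at day 1 and 7 rose at day 3, and within day 3 6 were lower in 3-digit libraries, beside 58.5%, 53.7% and 18.5% of all genes called in these comparisons. The sum was 483, 404, 504, 573 and 647 CPM at day 1, and 343, 223, 378, 498 and 764 CPM at day 3. At day 1 the order of the libraries was the same for Epas1 and for this sum, and at day 3 it differed only between replicates 1 and 3. At day 0 the library with the highest endothelial sum had the lowest Epas1. The podocyte sum, 341, 289.6, 365, 475 and 495 CPM at day 3, ordered the libraries of that day as the endothelial sum did. At day 1 the orders of these 2 sums differed. The marker lists were set beside these genes after the values were seen, and their part in the results was not tested.

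**Figure D4:**
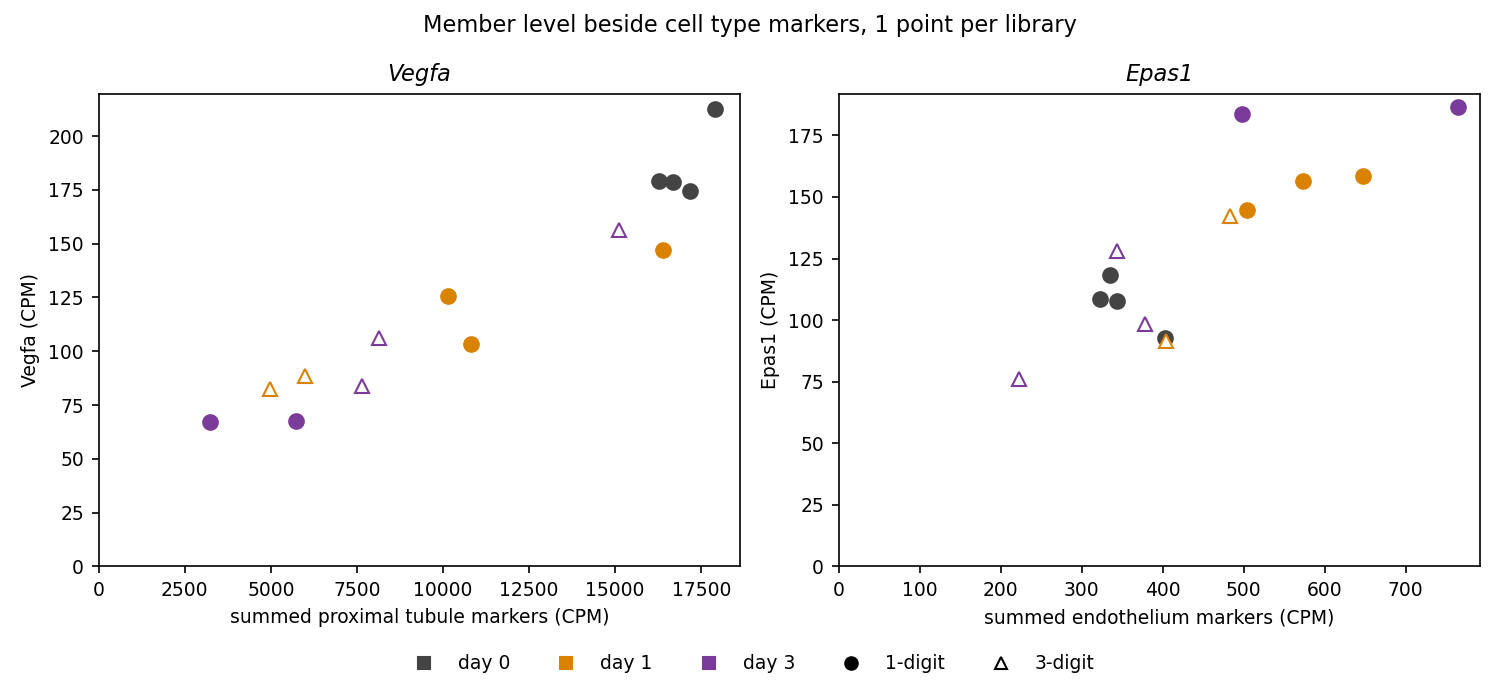
CPM of Vegfa against the summed CPM of 9 proximal tubule markers (left) and CPM of Epas1 against that of 10 endothelial markers (right), on linear axes from 0 with 1 point per library; colours are days, circles 1-digit and triangles 3-digit libraries. Day 0 libraries lie at the upper right for Vegfa, and the 1-digit day 3 libraries have the highest Epas1.

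Neutrophil and tubular injury markers were higher in all the later libraries. The 5 neutrophil markers summed to 1.33 to 2.07 CPM at day 0, 47.4 to 201 CPM at day 1 and 19.3 to 408 CPM at day 3. All 5 rose at both days, beside 23.3% and 19.5% of all genes that were higher. The 5 tubular injury markers summed to 1040 to 1352 CPM, 7228 to 35180 CPM and 5849 to 43160 CPM, and 4 of them rose at both days, beside the same shares. The 7 macrophage markers summed to 112 to 161 CPM at day 0, 79.2 to 118 CPM at day 1 and 78.2 to 153.5 CPM at day 3. Of these, 1 was higher and 1 lower at day 1, beside 42.1% of all genes called. At day 3, 2 were higher and 1 lower, beside 33.3% of all genes. Within day 1 the injury sum was 29950 to 35180 CPM in the 3-digit libraries, which had the higher Egln3, and 7228 to 14780 CPM in the 1-digit ones. At day 3 replicate 4 held the highest injury sum, 43160 CPM, and the lowest Egln3, 4.37 CPM. Replicate 3 of that day held the highest Egln3, 11.9 CPM, at an injury sum of 19780 CPM. Within day 1 other marker sums also stood higher in 3-digit than in 1-digit libraries: smooth muscle at 453 to 552 CPM against 299 to 389 CPM (4 of 5 genes called), fibroblast and pericyte at 334 to 443 CPM against 145 to 195 CPM (3 of 7) and urothelium at 11.4 and 85.4 CPM against 0.954 to 3.38 CPM (2 of 4), beside 35% of all genes called. The sums of collecting duct (694 to 740.3 CPM against 338 to 521 CPM) and macrophage markers (111 to 118 CPM against 79.2 to 86.8 CPM) did too. Those of the proximal tubule (4971 to 5995 CPM against 10140 to 16390 CPM) and endothelium (404 to 483 CPM against 504 to 647 CPM) stood lower. Day 1 replicate 2 held the highest urothelial sum of all 14 libraries, and at day 0 the library with the highest such sum, replicate 4 at 37.1 CPM, had the lowest Egln3. The part of these cells and of injury in the values of the 10 genes was not tested.

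Of the receptors of VEGF-A and adrenomedullin, 1 of 6 was called at day 1, beside 42.1% of all genes. Ramp3, which pairs with the calcitonin receptor-like receptor to bind adrenomedullin, rose at day 1 by 1.42 (SE 0.395, edgeR adjusted p = 0.011). It read 10.6 to 12.3 CPM at day 0, 20.2, 13.8, 33.8, 40.4 and 48.0 CPM at day 1, and 14.9, 9.91, 11.6, 21.5 and 35.6 CPM at day 3. The day 1 libraries all exceeded day 0, with replicate 2 lowest for Ramp3 as for Adm. None of the 6 was called between day 3 and day 0, whereas among 1-digit libraries 5 of 6 were higher at day 3, in a comparison where 53.7% of all genes were called against 33.3% in the pooled one.

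Bnip3 and Ndrg1 were not called in any comparison of days. Bnip3 (ENSMUSG00000078566.8, chr7:138890836-138909519, minus strand) encodes a protein of the outer mitochondrial membrane that marks mitochondria for removal. It read 149.6, 159.8, 165 and 126 CPM at day 0, then 159, 108, 159, 145 and 146 CPM at day 1, and 228, 119, 117, 222 and 129 CPM at day 3. At day 3 replicates 1 and 4, of different formats, stood above all other libraries and the other 3 lay at or below the day 0 level. The differences from day 0 were -0.06 at day 1 (SE 0.216, edgeR adjusted p = 0.826) and 0.12 at day 3 (SE 0.216, edgeR adjusted p = 0.693).

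Ndrg1 (ENSMUSG00000005125.13, chr15:66929318-66969640, minus strand), a stress-responsive gene linked to cell differentiation, was the most abundant of the 10. It read 3513, 3963, 3916 and 4138 CPM at day 0, then 2787, 1249, 2614, 4589 and 2682 CPM at day 1, and 4423, 3256, 3083, 5318 and 4089.8 CPM at day 3. At day 1 replicate 4 lay above the day 0 range and the other 4 libraries lay below it, and at day 3 replicates 1 and 4 were highest, as for Bnip3. The difference at day 1 was -0.48 (SE 0.282, edgeR adjusted p = 0.182), and -0.73 (edgeR adjusted p = 0.0406) without day 1 replicate 4. At day 3 it was 0.06 (SE 0.284, edgeR adjusted p = 0.894). Replicate 2 of day 1 held the lowest Ndrg1, Bnip3, Epas1, Vegfa and Adm of its day.

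Ankrd37 and Car9 were low and not called. Ankrd37 (ENSMUSG00000050914.16, chr8:45996902-46005707, minus strand), a small ankyrin repeat protein, rested on 9 to 41 reads per library. It read 0.805, 1.41, 1.33 and 1.51 CPM at day 0, then 1.40, 1.45, 2.04, 2.34 and 1.93 CPM at day 1, and 1.12, 1.07, 0.446, 1.68 and 1.10 CPM at day 3. The 3 1-digit libraries of day 1 lay above day 0, and the 3-digit ones lay within its range. The difference was 0.53 at day 1 (SE 0.35, edgeR adjusted p = 0.232) and -0.23 at day 3 (SE 0.354, edgeR adjusted p = 0.639). Among 1-digit libraries, which did not overlap between day 1 and day 0, it was 0.74 (SE 0.341, edgeR adjusted p = 0.0785).

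Car9 (ENSMUSG00000028463.14, chr4:43506966-43513729, plus strand) encodes a carbonic anhydrase of the cell surface that handles acid. It read 8.57, 6.47, 8.53 and 9.55 CPM at day 0, then 6.30, 5.86, 4.97, 8.17 and 5.95 CPM at day 1, and 3.41, 7.77, 1.83, 6.46 and 1.76 CPM at day 3. Of the day 3 libraries, 3 were below every other library and replicates 2 and 4 were near or within the range of day 0. The difference was -0.40 at day 1 (SE 0.382, edgeR adjusted p = 0.406) and -0.96 at day 3 (SE 0.384, edgeR adjusted p = 0.0666). The day 3 value passed the threshold with DESeq2 (-0.98, adjusted p = 0.0348), without day 3 replicate 2 (-1.30, edgeR adjusted p = 0.012) and without day 3 replicate 4 (-1.16, edgeR adjusted p = 0.0464).

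Between the number formats, 2 of 10 genes were called within day 1, against 35% of all genes, and 2 of 10 within day 3, against 18.5%. Within day 1 they were Egln3, given above, and Egln1, lower in 3-digit libraries at -0.41 (SE 0.133, edgeR adjusted p = 0.0301). The Egln1 call was lost without day 1 replicate 1, 2 or 4, with adjusted p from 0.0782 to 0.174, and was -0.20 with library totals in place of TMM (edgeR adjusted p = 0.289). Within day 3 Epas1 was lower in 3-digit libraries at -0.88 (SE 0.208, edgeR adjusted p = 0.0162, and 0.104 without day 3 replicate 5), and Vegfa was higher at 0.78 (SE 0.224, edgeR adjusted p = 0.0316). The Vegfa call was lost without day 3 replicate 2, 3, 4 or 5, with adjusted p from 0.0582 to 0.174. The format difference of Vegfa had opposite signs at the 2 days, -0.55 at day 1 and 0.78 at day 3, and differed by -1.33 (SE 0.31, edgeR adjusted p = 0.0127), 1 of 10 genes called against 17.6%.

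Among 1-digit libraries alone 6 of 10 genes were called between day 1 and day 0, against 58.5% of all genes, and 4 of 10 between day 3 and day 0, against 53.7%. The 6 were Hif1a, Epas1 and Adm, which were higher, and Egln1, Egln3 and Vegfa, which were lower. The 4 were Epas1 and Adm, higher, and Egln1 and Vegfa, lower. Between day 3 and day 1, 2 of 10 were called among 1-digit libraries against 32%, namely Vegfa and Adm, and 1 of 10 among 3-digit libraries against 13.9%, namely Hif1a. The Hif1a call among 3-digit libraries was lost without day 1 replicate 1 (edgeR adjusted p = 0.115) or 2 (edgeR adjusted p = 0.082), where the lone library left was assumed to vary like the others.

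The wider pathway moved in both directions. Of 78 further genes in 9 lists, 75 could be tested, and at day 1 20 rose, 11 fell and 44 were not called, a called share of 41.3% beside 42.1% of all genes (23.3% up and 18.7% down). At day 3 10 rose, 13 fell and 52 were not called (30.7% beside 33.3%, of which 19.5% higher and 13.8% lower). From day 1 to day 3, 3 rose, 10 fell and 62 were not called (17.3% beside 15.9%, of which 8.52% higher and 7.39% lower). Among 1-digit libraries 26 rose and 19 fell at day 1 (60% beside 58.5%), and at day 3 27 rose and 19 fell (61.3% beside 53.7%), so at day 3 more rose than fell there, unlike in the pooled libraries. Epo, the kidney's erythropoietin gene, had 2 reads in all at day 0, 3 at day 1 and 0 at day 3, so no change was detectable at this depth. Eno1 had at most 1 read in a library, and its count is uncertain, since only reads that map to 1 place were counted and Eno1 has a near-identical copy in the genome. Cox4i2 had at most 12 reads.

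Vascular and secreted targets held both higher and lower genes. Of 8 tested, 4 rose and 1 fell at each later day, beside 42.1% and 33.3% of all genes called. Pgf, a relative of Vegfa, rose by 3.92 and 2.73 from a mean of 0.329 CPM, the endothelin gene Edn1 by 3.16 and 2.45, and Angptl4 by 1.80 and 1.38, so Vegfa moved opposite to these. Cxcl12, a chemokine, fell by 1.69 at day 1, from a mean of 134 CPM to 41.6 CPM, and was higher by 1.25 at day 3 than at day 1. Angpt2 fell by 0.87 at day 3, a call lost without day 0 replicate 2 or 4 (edgeR adjusted p = 0.0518 and 0.0572).

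Of 18 glucose metabolism targets tested, 5 rose and 3 fell at day 1, and 2 rose and 4 fell at day 3, near the shares of all genes (42.1% and 33.3%). Hk2, a hexokinase, rose from a mean of 0.703 CPM to 8.24 CPM at day 1 and 5.22 CPM at day 3, log2 values of 3.54 and 2.88. The glucose transporter gene Slc2a1 rose by 1.05 at day 1 and fell by 0.93 from day 1 to day 3, and Pfkfb3 rose by 1.23 and fell by 1.02. The lactate exporter gene Slc16a3 rose by 1.86 and 1.73. Against these, the aldolase gene Aldoc fell by 1.57 at day 1, with a log2 value of -1.84 at day 3, and Ak4, a mitochondrial adenylate kinase, fell by 2.24 and 1.53. The Ak4 call at day 3 was lost without day 0 replicate 1, 2 or 3 or day 3 replicate 1 or 4 (edgeR adjusted p from 0.0529 to 0.0617).

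Pdk1, the kinase that turns pyruvate away from mitochondria, was lower at day 1 and higher again at day 3. It read 24.3 to 31.3 CPM at day 0, 15.1, 21.2, 6.81, 7.60 and 7.88 CPM at day 1, and 56.0, 29.6, 42.1, 37.4 and 31.0 CPM at day 3. All day 1 libraries lay below day 0, the 1-digit ones lowest, and day 3 lay above day 1 without overlap. Pdk1 fell by 1.20 at day 1 (SE 0.307, edgeR adjusted p = 0.00696) and was higher at day 3 than at day 1 by 1.74 (SE 0.297, edgeR adjusted p = 0.00358), the opposite course to Hif1a and Adm. Within day 1 the 3-digit libraries were higher by 1.29 (edgeR adjusted p = 0.00169).

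Of 7 mitochondrial and pH targets tested, 1 was higher, 3 were lower and 3 were not called at day 1, and 3 were lower and 4 not called at day 3, beside 18.7% and 13.8% of all genes that were lower. Mxi1, an antagonist of MYC, fell by 0.88 at day 1 and 0.72 at day 3. Lonp1, a mitochondrial protease, fell by 0.79 at day 3, and Bnip3l, the closest relative of Bnip3, fell by 0.40 at day 1. The Bnip3l call at day 1 was lost without day 0 replicate 3 (edgeR adjusted p = 0.0501). Higd1a rose by 0.94 at day 1 and fell by 0.70 from day 1 to day 3, and that fall was lost in 11 of 14 fits that each left out 1 library (edgeR adjusted p from 0.06 to 0.128).

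In the list of chromatin, clock and growth-arrest targets, 2 of 8 rose and 2 fell at day 1, and none was called at day 3, beside 42.1% and 33.3% of all genes. Both that rose are clock repressors: Bhlhe40 by 1.59, from a mean of 94.7 CPM to 284 CPM, and Bhlhe41 by 2.98, from 2.29 CPM to 18.2 CPM. The day 1 rise of Bhlhe41 lay in the 1-digit libraries, at 35.4, 14.7 and 34.2 CPM, while the 3-digit ones, at 3.13 and 3.50 CPM, were within the day 0 range of 1.65 to 3.51 CPM. Insig2 fell by 0.70 and the histone demethylase gene Kdm4c by 0.45. From day 1 to day 3 Bhlhe40 fell by 1.05. Bhlhe41 fell by 1.92, a call lost in 11 of 14 fits that each left out 1 library (edgeR adjusted p from 0.058 to 0.131).

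Of 7 collagen-modifying and related genes tested, 2 rose and 1 fell at day 1, and 2 rose and 3 fell at day 3, beside 42.1% and 33.3% of all genes called. Lox and Loxl2, which crosslink collagen outside the cell, rose by 4.09 and 1.01 at day 1 and by 4.42 and 2.15 at day 3. Plod2 and P4ha1, which hydroxylate collagen inside the cell, were lower at day 3 by log2 values of -1.07 and -1.24, and P4ha2 fell by 0.94 from day 1 to day 3. Plod2 was already lower at day 1 at -0.75, a call lost without day 0 replicate 2, 3 or 4 or day 1 replicate 3, 4 or 5 (edgeR adjusted p from 0.0582 to 0.0667). Summed fibroblast and pericyte markers went from 126 to 135 CPM at day 0 to 145 to 443 CPM at day 1 and 525 to 1154 CPM at day 3, and their part in Lox and Loxl2 was not tested.

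Among 5 iron and heme targets, Hmox1, which breaks down heme, rose from a mean of 39.0 CPM at day 0 to 703 CPM at day 1 and 147 CPM at day 3. In log2 terms it rose by 4.17 (SE 0.449, edgeR adjusted p = 2.48e-05) and 1.91 (SE 0.403, edgeR adjusted p = 0.00311), and it fell by 2.26 between the later days. Slc11a2, an iron transporter gene, fell by 0.57 at day 1. Tfrc, the transferrin receptor gene, fell by 0.74 at day 3 (edgeR adjusted p = 0.0484), a call lost in 7 of 14 fits that each left out 1 library (edgeR adjusted p from 0.0738 to 0.123). Hmox1 and Slc11a2 alone of the iron and heme list were called at day 1, beside 42.1% of all genes. At day 3 Hmox1 and Tfrc alone were called, beside 33.3% of all genes. Siah2 and Cul2 of the HIF turnover list fell by 1.04 and 0.35 between day 1 and day 3, and the Siah2 call was lost in 6 of 14 fits that each left out 1 library and the Cul2 call without day 1 replicate 4 or day 3 replicate 1 (edgeR adjusted p at most 0.0644). The Siah2 fall lay in the 1-digit libraries, which read 60.7, 43.1 and 45.8 CPM at day 1, while the 3-digit libraries of day 1 read 20.2 and 18.2 CPM and all day 3 libraries 13.9 to 22.9 CPM.

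**Figure D5:**
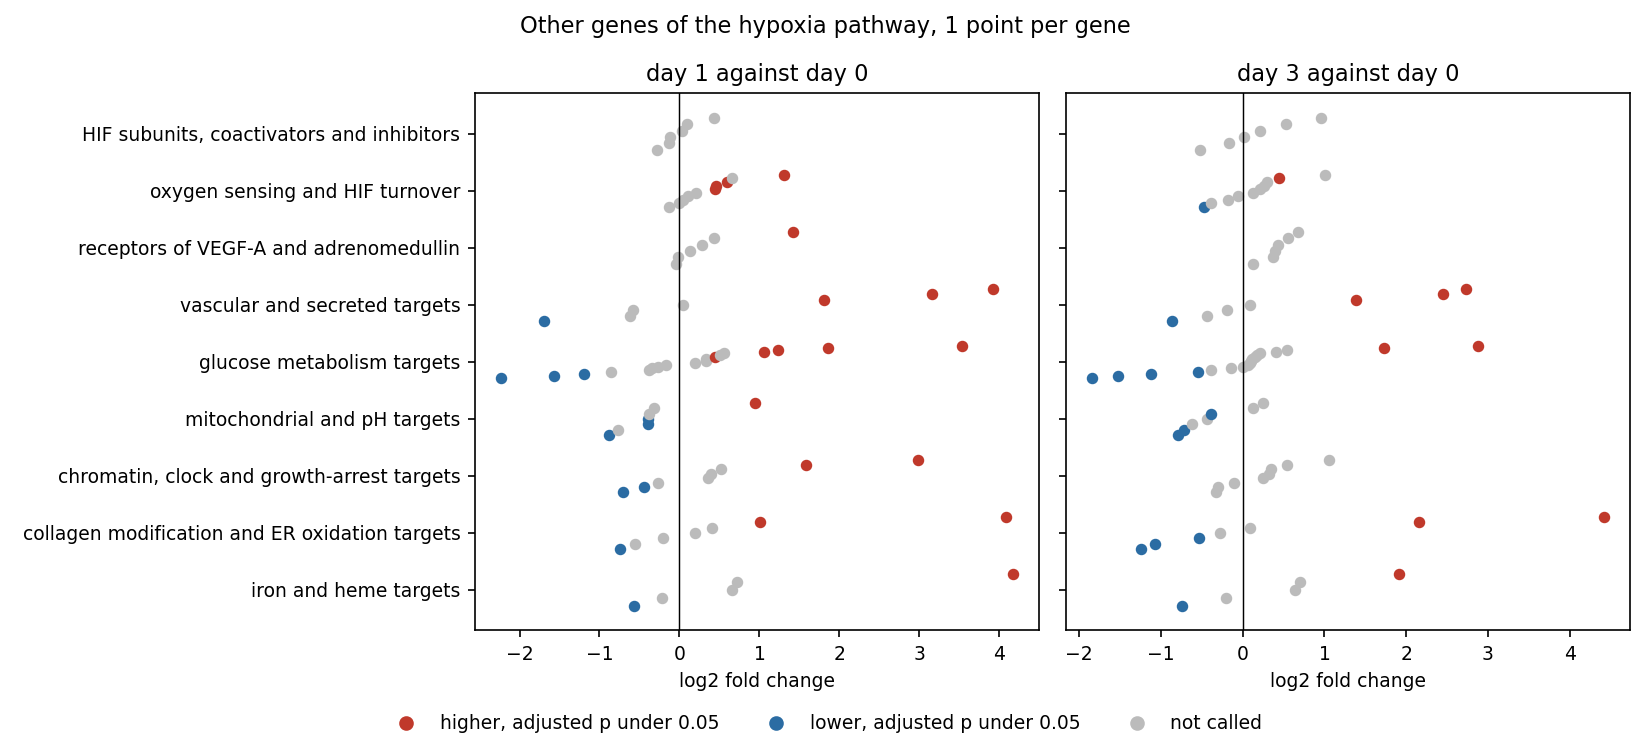
Log2 fold changes of the further genes of the hypoxia pathway by list (75 tested, of which 1 is not plotted), at day 1 (left) and day 3 (right) against the same 4 day 0 libraries, 1 point per gene; red and blue mark higher and lower genes at an adjusted p under 0.05 and grey those not called. Hmox1 lies farthest right at day 1, at 4.17, and Lox at day 3, at 4.42, and the points of most lists lie on both sides of 0.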

How the data were processed

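The members and all gene lists were chosen with earlier results of these data known. Per the labels, TRIzol was used to extract RNA and an Illumina TruSeq kit to make libraries; the submitters' processing notes name Trimmomatic, STAR and mm10, and versions and annotation are not given in the sources used here. The authors deposited raw read counts per gene symbol for 14 libraries, made by STAR from uniquely mapped reads, which lowers genes with near-identical copies. The column of the strand that held 98.5% to 98.8% of strand-assigned reads was used (column 4), and entries that name no gene, 29.0% to 38.3% of a library, were left out.

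Counts were filtered with filterByExpr, scaled by TMM and fitted with edgeR 4.0.16 in R 4.3.3 (limma 3.58.1), with 1 term per day over all 14 libraries, or 1 per day and number format. The quasi-likelihood test was used with Benjamini-Hochberg adjustment over all 14300 genes, and an adjusted p under 0.05 was a call. It was also run on simulated counts, and the result of that run is not reported here. Standard errors came from the F value, and a prior count of 2 entered log2 CPM. No replicate pair agreed within sampling noise (the chi-square was 5.69 to 228 times its degrees of freedom), and each library was counted once.

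Groups came from the sample titles. Of the wider pathway, up to 2 genes that rose and 2 that fell most per list and comparison, called and with a mean of at least 1 CPM in either day, were named beside Epo, Arnt, Hif3a, Vhl and Egln2, and Tceb1, Rbx1, Edn1, Angptl4, Cox4i2, Eno1 and the day 1 changes of Slc2a1, Pfkfb3 and Pdk1 were added after their values were seen. Of the vascular and secreted targets, 1 gene enters the counts and is not reported here by itself. Of 67 markers in 11 lists, 66 were listed in the files. Exon lengths came from GENCODE M21 and promoters from RefSeq, both on GRCm38, the same build as mm10. The alternatives tried were leaving out each library, DESeq2 1.42.0, RLE size factors, library totals, the unstranded column, no filter on low counts or one of 10 counts in all libraries, a fit of the compared days alone, a fit with the format as a term, a replicate block, and a minimum absolute log2 fold change of 1.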

Additional observations from a re-analysis of the deposited data

Results flagged for a closer look

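In 30 groups of 4 or 5 libraries (10 genes at 3 days), 3 held a library far from the rest by Dixon's criterion, beside 1.5 that chance alone gives on average. On the log2 CPM scale Epas1 read 6.52 in day 1 replicate 2, against 7.15 to 7.31 in the other 4 libraries. Bnip3 read 6.76 in the same library, against 7.18 to 7.32 in the others. Vegfa read 7.73 in day 0 replicate 1, against 7.45 to 7.49 in the others.

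The number format differed in its relation to Vegfa between the later days: the 3-digit minus 1-digit difference of day 1 less that of day 3 was -1.33 on the log2 scale (edgeR adjusted p = 0.0127). The summed proximal tubule markers were lower in 3-digit libraries at day 1 (4971 to 5995 CPM against 10140 to 16390 CPM) and higher in them at day 3 (7649 to 15120 CPM against 3233 to 5735 CPM), and their part in this difference was not tested.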

How the results depend on the processing

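The calls of Hif1a, Egln1 and Adm at day 1 and of Egln1 and Vegfa at day 3 against day 0 kept their direction and their side of the threshold without any 1 library and in the 9 other settings that kept the threshold on adjusted p alone. A minimum absolute log2 fold change of 1 left Adm at day 1 as the only one of them. Adm at day 3 was lost with RLE size factors (adjusted p = 0.0524), without a filter (0.0631), with the replicate block (0.0724) and with only the days compared (0.0536). Hif1a from day 1 to day 3 was lost with library totals (0.13) and with only the days compared (0.081), and so was Adm with the latter (0.0609). Of 687 alternatives for the 10 genes between days, the minimum fold change not among them, 626 kept direction and side, 26 lost a call, 7 gained one and 28 changed sign, all 28 for differences that were not called.

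Among the pathway calls named by gene and day above, other settings than left-out libraries ended those of Tceb2, Angpt2 and Tfrc at day 3, of Rbx1 and Plod2 at day 1, and of Cul2, Siah2, Higd1a, Bhlhe40 and Bhlhe41 from day 1 to day 3, and no call changed sign.

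At a minimum absolute log2 fold change of 1, members called were 1, 0 and 0 at day 1 against day 0, day 3 against day 0 and day 3 against day 1, and other pathway genes 19, 14 and 8. With the format as a term 37 pathway genes were called at day 3 against day 0. With library totals in place of TMM, which moved the median of all genes by 0.139 (day 3 against day 0), 0.154 (day 3 against day 1) and 0.213 (formats within day 1), members called were 1 between day 3 and day 1, 1 between formats within day 1 and 1 among 1-digit libraries of day 3 against day 1. With only the days compared, 0 members and 7 pathway genes were called between day 3 and day 1. Leaving out each library gave 3 to 5, 2 to 4 and 0 to 3 members and 25 to 38, 17 to 26 and 8 to 16 pathway genes in the 3 comparisons of days. It gave 0 to 4 members between formats within day 1, 0 to 2 within day 3, 1 to 2 for the difference of these, 3 to 6, 3 to 5 and 0 to 2 among 1-digit libraries of day 1 and day 3 against day 0 and of day 3 against day 1, and 0 to 3 among 3-digit libraries. The cause of these changes was not tested.

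Signs changed with library totals for Egln3 at day 3 against day 0 (0.056) and for Epas1 (0.12) and Vegfa (0.0018) at day 3 against day 1. They changed with the format as a term for Bnip3 at day 1 (0.0021) and Ankrd37 at day 3 (0.11) against day 0 and Epas1 at day 3 against day 1 (0.030). Leaving out 1 library, Egln3 ranged from -0.44 to 0.084 at day 1 and -0.33 to 0.10 at day 3 against day 0 and from -0.16 to 0.33 between them. Bnip3 ranged from -0.14 to 0.021 at day 1 and -0.031 to 0.21 at day 3, Hif1a from -0.053 to 0.15 and Ndrg1 from -0.062 to 0.12 at day 3 against day 0, and Epas1 from -0.21 to 0.11 between day 3 and day 1.

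Replicate numbers did not pair the samples: 4 of 13 same-number pairs of days correlated over 0.1 in their deviations (-0.175 to 0.261), and 6 of 26 correlated best with their own number. With the replicate number as a block, 4, 2 and 2 members were called in the 3 comparisons of days, and signs changed for Hif1a (-0.045) and Ndrg1 (-0.0050) at day 3 against day 0, with 5162, 4103 and 2044 genes called over all in place of 6020, 4757 and 2276. Ankrd37 rested on 9 to 41 reads a library, and how far depth limited its calls was not tested.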
